A study of Drosophila melanogaster with 73 samples.

Results

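Transcript levels of 8 antioxidant and glutathione genes were followed in the abdominal fat body of the fruit fly Drosophila melanogaster, the organ that stores fat and glycogen and carries out much of the work done by a liver. The genes were Sod1, Sod2, Cat, Trx-2, Gclc, Gclm, cnc and Keap1. They were chosen as a list of symbols, with earlier results of these data known, out of 23932 genes in the deposited table. All 8 were found in it, and all 8 were among the 7358 genes with a median above 5 TPM (a transcript's share of the library, corrected for its length and scaled to a fixed total) at either temperature on days 4-5.

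The study set out to follow how the fly's circadian system responds to a fall in temperature. All flies were mated females of Iso31, an isogenic w1118 strain, kept with males for 3 days and then entrained to light-dark cycles for 3 days, and they were about 7 days old when the experimental flies were moved to 18°C. The 73 libraries formed 4 groups, namely 24 from flies at 18°C and 26 from flies kept at 25°C on days 4-5 after the shift, and 18 at 18°C and 5 at 25°C on days 1-2. Each library held the pooled fat bodies of several flies, collected attached to the epidermis after the other abdominal organs had been taken out by hand. Time of day is given as zeitgeber time (ZT, hours after lights on), with replicate 1 sampled at steps of 2 h on days 4-5 and replicate 2 at steps of 6 h, and all libraries of days 1-2 belonged to replicate 1. Whether replicates 1 and 2 were separate fly cultures is not given in the labels, so p-values measure the spread between these libraries.

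Cells that respire produce superoxide, which superoxide dismutases turn into hydrogen peroxide. Hydrogen peroxide is then removed by catalase in peroxisomes and by peroxidases that draw on thioredoxin or glutathione. Flies have no glutathione reductase, and the thioredoxin system also keeps glutathione reduced. Many enzymes of glutathione synthesis and use are targets of the transcription factor CncC, the fly counterpart of mammalian Nrf2, which the adaptor protein Keap1 holds in check.

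The genes lie on 4 chromosome arms and on X. In the Ensembl annotation BDGP6.54, Sod1 (FBgn0003462) spans chromosome 3L from 11112281 to 11113740, Cat (FBgn0000261) spans 3L from 18822604 to 18828188, and Sod2 (FBgn0010213) spans 2R from 16772785 to 16773915. Trx-2 (FBgn0040070) spans 2L from 9613166 to 9616404, and Gclc (FBgn0040319) spans X from 8102181 to 8116147. On 3R lie Keap1 (FBgn0038475, 17073942 to 17079945), Gclm (FBgn0046114, 22685006 to 22686510) and cnc (FBgn0262975, 23185580 to 23226711). The reads of a gene were counted over its exons without regard to strand. Only cnc shared exon bases with other genes, 63 of its 9178, and both of those genes lie on the opposite strand. The table gives a single value for cnc, so the short isoforms that lack the Nrf2-like function and the CncC isoform could not be told apart.

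At 18°C on days 4-5 the 8 transcripts ranged over more than 2 orders of magnitude. Sod1 averaged 2506 TPM and ranked 79 among all genes, and Cat averaged 2358 TPM at rank 89. Trx-2 followed at 600 TPM, Gclm at 256 TPM, Sod2 at 171 TPM, cnc at 126 TPM, Gclc at 81.8 TPM and Keap1 at 16.8 TPM. The ranges over libraries of Sod1 and Cat overlapped, as did those of Gclm and Sod2, of Sod2 and cnc, and of cnc and Gclc. Trx-2 lay above Gclm in all libraries of this group, and Keap1 lay below Gclc in all of them. The order was the same at 25°C on days 4-5 and at 18°C on days 1-2. In the 5 libraries at 25°C on days 1-2, Sod2 (182 ± 16.2 TPM) stood above Gclm (167 ± 44.9 TPM, SD).

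Libraries were compared with their own group before any test. The median correlation of a library with the rest of its group lay between 0.917 and 0.963 at 18°C on days 4-5 and between 0.934 and 0.963 at 25°C, and between 0.906 and 0.964 at 18°C and between 0.952 and 0.977 at 25°C on days 1-2. At 18°C, 3 libraries of days 4-5 and 2 of days 1-2 fell below 0.93, and the mean differences and the rhythms of days 4-5 that rest on them are also given without them. All 8 fat body markers had medians above 5 TPM in every group. Germline and eggshell marker genes were detected in all groups with wide ranges, as described below where they bear on a result.

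**Figure D1:**
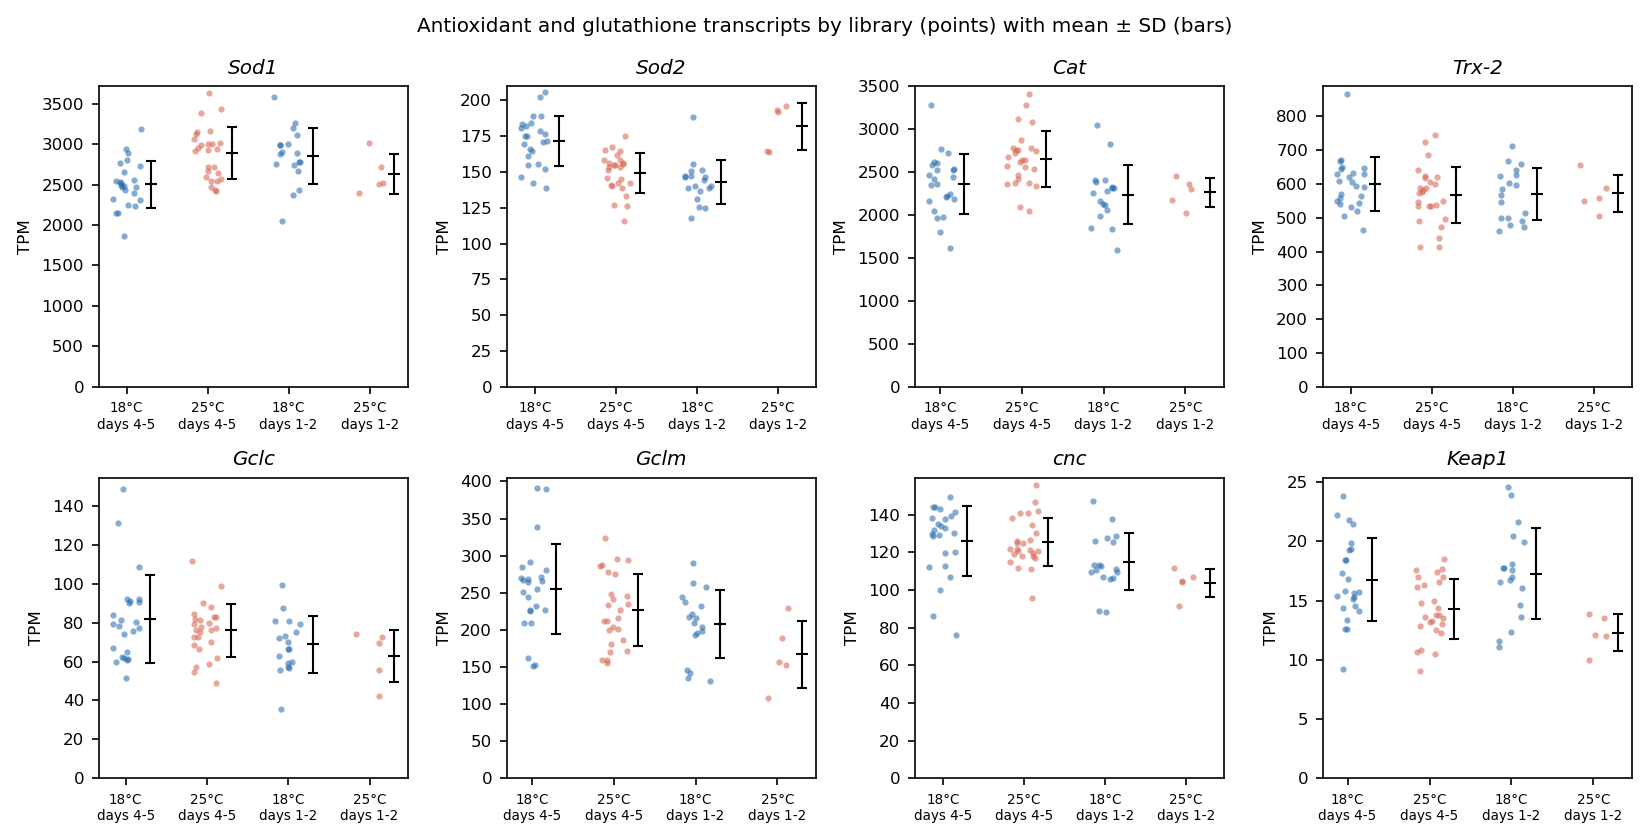
Level of each of the 8 transcripts in TPM (vertical axes, from 0) in each library (points) of the 4 groups (horizontal axes), with the mean and SD of each group as bars. On days 4-5, Sod2 averaged 171 TPM at 18°C and 149 TPM at 25°C, while Sod1 averaged 2506 TPM at 18°C against 2885 TPM at 25°C.

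The first comparison asked how the 8 transcripts stood once the flies had settled at the lower temperature. It was fitted with limma on log2(TPM + 1) over 50 libraries, with 24 h terms shared by both temperatures, and p-values were adjusted over the 7358 genes. Sod1 and Cat were lower at 18°C, Sod2 and Keap1 were higher at 18°C, and Trx-2, Gclc, Gclm and cnc did not pass the test. Of all genes tested, 50.7% were called in this comparison, 35.3% higher and 15.5% lower at 18°C, so the 4 of 8 called here stood close to the background. The median difference over all genes was 0.09 on the log2 scale, and the differences below are to be read against it. Of the called genes 69.6% were higher at 18°C, and 53.8% were when TPM were rescaled by median ratios over genes, under which the same 4 members were called. In tissue profiled in bulk, fewer cells of a type and less RNA per cell cannot be told apart.

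Sod1 encodes the copper-zinc superoxide dismutase of the cytosol. Its lowest, median and highest values were 1869, 2492 and 3185 TPM at 18°C, against 2418, 2935 and 3631 TPM at 25°C. The groups overlapped, with 8 of the 24 libraries at 18°C below the lowest at 25°C, and Sod1 was lower at 18°C in 19 of the 24 pairs of libraries that shared replicate, day and ZT. The difference was -0.21 on the log2 scale (SE 0.05, limma adjusted p = 0.000218).

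Sod2, the manganese enzyme of the mitochondrial matrix, moved the other way. It measured 139, 173 and 205 TPM at 18°C and 116, 153 and 175 TPM at 25°C (lowest, median and highest). Although the groups overlapped, 11 of the 24 libraries at 18°C stood above every library at 25°C, and Sod2 was higher at 18°C in 22 of 24 pairs. The difference was 0.20 (SE 0.04, limma adjusted p = 0.000155), a 1.15-fold higher level.

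The opposed directions showed in the ratio of the dismutases within a library, which no scaling of the library can change. The ratio of Sod1 to Sod2 TPM was 14.8 ± 2.6 at 18°C and 19.5 ± 2.8 at 25°C (SD, n = 24 and 26). It lay below the lowest value at 25°C in 16 of the 24 libraries at 18°C and was lower at 18°C in 20 of 24 pairs.

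Cat encodes catalase, which splits hydrogen peroxide into water and oxygen. It measured 1612, 2387 and 3277 TPM at 18°C and 2044, 2642 and 3410 TPM at 25°C (lowest, median and highest). Only 5 libraries at 18°C fell below the range at 25°C, and Cat was lower at 18°C in 19 of 24 pairs. The difference was -0.18 (SE 0.05, limma adjusted p = 0.00395). Cat and Sod1 kept close to each other, and their ratio was 1.07 ± 0.10 at 18°C and 1.09 ± 0.09 at 25°C.

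**Figure D2:**
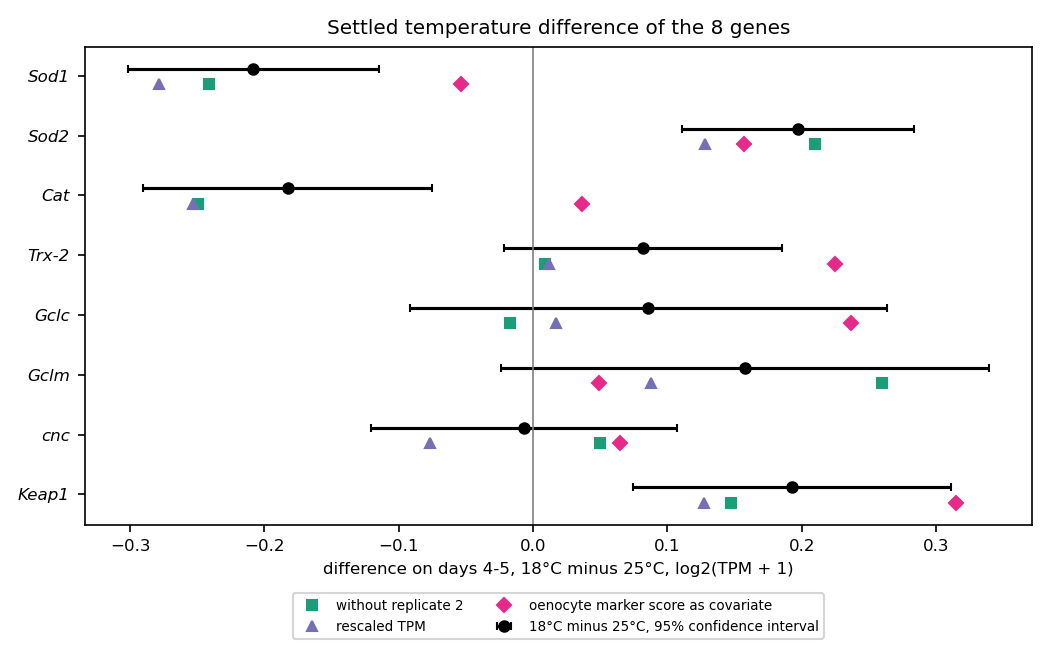
Difference on days 4-5 (18°C minus 25°C, log2 of TPM + 1, horizontal axis) of each transcript, with its 95% confidence interval (black), and the same difference without replicate 2 (squares), with rescaled TPM (triangles) and with the oenocyte marker score as covariate (diamonds). The intervals of Sod1, Sod2, Cat and Keap1 do not cross 0, and with the oenocyte score Sod1 is at -0.05 and Cat at 0.04.

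Trx-2, a thioredoxin of the cytosol that passes electrons to peroxidases and to oxidised glutathione, measured 464, 600 and 867 TPM at 18°C and 413, 575 and 744 TPM at 25°C (lowest, median and highest). The ranges largely coincided. The difference was 0.08 with a 95% confidence interval from -0.02 to 0.19 (limma adjusted p = 0.184). Trxr-1, the reductase that recharges thioredoxin in the fly, had 306 ± 29.6 TPM at 18°C and 227 ± 27.9 TPM at 25°C, a difference of 0.43 (limma adjusted p = 6.11e-11). The ratio of Trx-2 to Trxr-1 was 1.97 ± 0.23 at 18°C and 2.5 ± 0.27 at 25°C, and it was lower at 18°C in 23 of 24 pairs. In Trxr-1, 435 exon bases are shared with sni on the opposite strand, and reads of the pair in that stretch could not be separated.

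Gclc and Gclm encode the catalytic and the modifier subunit of glutamate-cysteine ligase, the enzyme of the rate-limiting step of glutathione synthesis. Gclc measured 51.4, 78.8 and 149 TPM at 18°C and 49.0, 76.9 and 112 TPM at 25°C (lowest, median and highest). Its difference was 0.09 with an interval from -0.09 to 0.26 (limma adjusted p = 0.431). Gclm measured 152, 260 and 391 TPM at 18°C and 155, 221 and 323 TPM at 25°C. Its difference was 0.16 with an interval from -0.02 to 0.34 (limma adjusted p = 0.142), and it was higher at 18°C in 17 of 24 pairs. Neither subunit passed the test, and neither interval excluded a difference as large as that of Sod2. For Gclm the call turned on the libraries of replicate 2, without which the difference was 0.26 (adjusted p = 0.0308). With the marker scores of germline, eggshell and gut as covariates it was 0.25 (adjusted p = 0.0131), and with library weights 0.24 (adjusted p = 0.0239).

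cnc measured 76.1, 131 and 150 TPM at 18°C and 95.8, 122 and 156 TPM at 25°C (lowest, median and highest). Its difference was -0.01 with an interval from -0.12 to 0.11 (limma adjusted p = 0.931), the smallest of the 8, and 12 of 24 pairs were higher at 18°C. Keap1, which targets CncC for degradation, measured 9.24, 15.8 and 23.8 TPM at 18°C and 9.04, 13.8 and 18.5 TPM at 25°C. Of the libraries at 18°C, 7 stood above the highest at 25°C, and 19 of 24 pairs were higher at 18°C. The difference was 0.19 (SE 0.06, limma adjusted p = 0.0056). The ratio of cnc to Keap1 was 7.80 ± 1.78 at 18°C and 8.99 ± 1.36 at 25°C, lower at 18°C in 16 of 24 pairs.

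The 4 calls were checked without the libraries that stand apart and within replicates. Without the 3 libraries at 18°C below 0.93, Sod1, Sod2, Cat and Keap1 were again the members called, with differences of -0.20, 0.22, -0.18 and 0.18. Without replicate 1, which left 5 libraries at 18°C and 7 at 25°C, no member was called, the differences of Sod1, Sod2 and Keap1 were -0.07, 0.15 and 0.32, and that of Cat was 0.04. The replicates differed in level for several members. At 18°C the mean log2 level of Gclc was 6.70 in replicate 2 and 6.23 in replicate 1, that of cnc was 6.59 in replicate 2 and 7.07 in replicate 1, and that of Sod1 was 11.44 in replicate 2 and 11.24 in replicate 1. At 25°C that of Trx-2 was 8.92 in replicate 2 and 9.21 in replicate 1.

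Several of the 8 transcripts moved with a set of markers of another cell type. Oenocytes are hydrocarbon-making cells under the abdominal epidermis, and 5 of their genes (FASN2, FASN3, Cyp4g1, eloF and Fad2, also called desatF) were used as markers. All 5 were well above 5 TPM in median, and their summed level was 17358, 21498 and 29568 TPM at 18°C and 20548, 25241 and 29711 TPM at 25°C (lowest, median and highest). Of these markers 4 of 5 were lower at 18°C, with eloF at -0.58 and FASN2 at -0.41, and FASN3 did not pass the test. The median difference over the 5 was -0.19.

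Within each temperature, Cat followed the oenocyte score, the mean log2 level of the 5 markers. Its Pearson r was 0.886 (Spearman rho 0.869) over the 24 libraries at 18°C and 0.919 (rho 0.921) over the 26 at 25°C. Both permutation p-values were 1e-05, the smallest that 100000 permutations can give, and 5.33e-05 after adjustment over 16 relations. Without the 2 libraries farthest from the median score r was 0.799 at 18°C and 0.882 at 25°C, and within replicate 1 it was 0.884 at 18°C and 0.908 at 25°C. Sod1 had r of 0.692 (rho 0.689, adjusted permutation p = 0.000704) at 18°C and 0.821 (rho 0.820, adjusted permutation p = 5.33e-05) at 25°C, and 0.530 and 0.798 without the 2 farthest libraries. Sod2 did not follow the score, with r of -0.324 (rho -0.228, adjusted permutation p = 0.164) at 18°C and -0.089 (rho -0.019, adjusted permutation p = 0.76) at 25°C.

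The other members followed the score less evenly. Trx-2 had r of 0.693 (rho 0.449, adjusted permutation p = 0.000747) at 18°C and 0.439 (rho 0.295, adjusted permutation p = 0.0481) at 25°C, and 0.489 and 0.148 without the 2 farthest libraries. Gclc had r of 0.601 (rho 0.568, adjusted permutation p = 0.00485) at 18°C, 0.395 without the 2 farthest libraries, and -0.031 (rho -0.068, adjusted permutation p = 0.937) at 25°C. Keap1 had r of 0.332 (rho 0.239, adjusted permutation p = 0.164) at 18°C and 0.695 (rho 0.623, adjusted permutation p = 0.00036) at 25°C, where it was 0.538 without the 2 farthest libraries. Neither cnc nor Gclm passed the test at either temperature. Relations with other marker scores are given as a description with no test. Cat had r of 0.656 at 18°C and 0.525 at 25°C with the muscle score and of 0.677 and 0.475 with the hemocyte score. Trx-2 had r of 0.631 at 18°C and 0.758 at 25°C with the muscle score and of 0.653 and 0.701 with the hemocyte score. For Trx-2 both scores gave a higher r than the oenocyte score at 25°C and a lower r at 18°C. With the fat body score, cnc had r of 0.565 at 18°C and 0.71 at 25°C. Keap1 had r of 0.559 at 18°C and 0.492 at 25°C with the muscle score. Gclm had negative r with the muscle score (-0.350 at 18°C and -0.586 at 25°C) and the hemocyte score (-0.239 and -0.555). With the eggshell score the r of Gclm was -0.640 at 18°C and -0.313 at 25°C.

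With the oenocyte score as a covariate, an alternative chosen after seeing the data, the difference of Cat was 0.04 (limma adjusted p = 0.365) and that of Sod1 was -0.05 (adjusted p = 0.28). Sod2 (0.16, adjusted p = 0.0105) and Keap1 (0.31, adjusted p = 8.78e-05) kept their calls, and Trx-2 (0.22, adjusted p = 0.000307) and Gclc (0.24, adjusted p = 0.0494) were called as higher at 18°C. Of the 5 markers in the score 4 were themselves lower at 18°C, so this fit cannot separate oenocyte content from levels per cell. The part of oenocyte content in the lower Cat and Sod1 was not tested. Muscle markers (3 of 4 tested) and hemocyte markers (4 of 6) were also lower at 18°C.

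**Figure D3:**
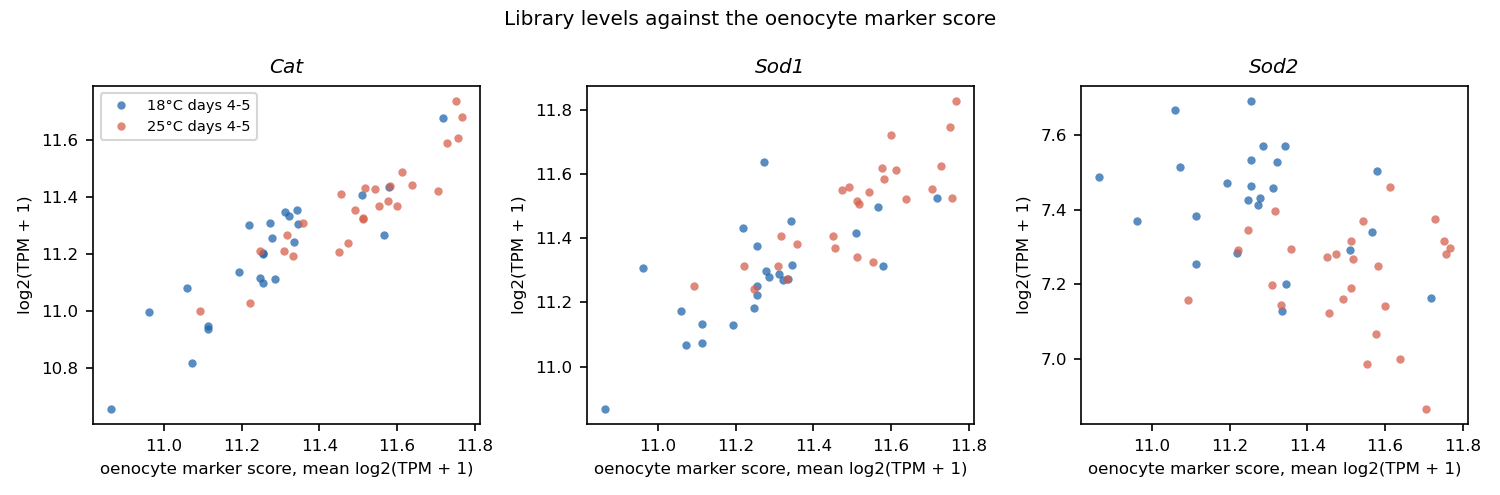
Level of Cat, Sod1 and Sod2 (log2 of TPM + 1, vertical axes) against the oenocyte marker score (mean log2 of TPM + 1 of 5 markers, horizontal axes) in the 24 libraries at 18°C and the 26 at 25°C of days 4-5. Cat climbs with the score at both temperatures (r of 0.886 and 0.919), and Sod2 does not (r of -0.324 and -0.089).

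The second comparison asked which of the transcripts cycled with the time of day. A 24 h cosine was fitted to the libraries of days 4-5 at each temperature, with phase as the ZT of the fitted maximum and amplitude as the distance on the log2 scale from the mean to that maximum. At 25°C, Keap1 was the only member called, against 5.04% of all genes (371 of 7358). At 18°C no member was called, against 1.78% of all genes (131 of 7358).

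Keap1 had its fitted maximum near lights off at both temperatures. At 18°C the amplitude was 0.31 (SE 0.07) with the maximum at ZT 12 (SE 0.75 h), a peak 1.55-fold above the trough, and the adjusted p of the harmonic F-test was 0.0533. At 25°C the amplitude was 0.24 (SE 0.06) with the maximum at ZT 10.9 (SE 0.81 h), a peak 1.40-fold above the trough, and the adjusted p was 0.0324. The 4 libraries at ZT12 held 19.4 to 23.8 TPM at 18°C and 15 to 17.7 TPM at 25°C. The libraries at ZT22 and ZT00 lay at 13.3 and 12.6 TPM at 18°C, and at 25°C they lay at 10.5 TPM (ZT22) and at 10.8 and 13.8 TPM (ZT00). The 4 libraries at ZT06 spread widely, from 9.24 to 22.2 TPM at 18°C and from 9.04 to 17 TPM at 25°C, with values of replicate 2 at the lower end of both ranges and at the upper end at 18°C.

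The rhythm of Keap1 was not shown to differ between temperatures. The limma test of the temperature by harmonic terms gave an adjusted p of 0.735 for Keap1 and called no member, against 0.435% of all genes (32 of 7358). With library weights it called Gclm (adjusted p = 0.0187). At 18°C the call of Keap1 lay near the threshold, with an adjusted p of 0.00625 without replicate 2, 0.0115 with rescaled TPM and 0.0398 with the oenocyte score, and 0.0672 without the libraries that stand apart. At 25°C the call was lost when no filter on low values was applied (adjusted p = 0.0655) and without replicate 1, which left 7 libraries (amplitude 0.26, adjusted p = 0.999), and Keap1 was not among the genes tested with a filter of 20 TPM.

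The remaining 7 transcripts had smaller fitted amplitudes relative to their spread. Trx-2 had an amplitude of 0.12 with its maximum at ZT 4.6 at 18°C and of 0.14 at ZT 6.6 at 25°C, with unadjusted p of 0.0478 and 0.0396 and adjusted p of 0.178 and 0.203 by the harmonic F-test. Without replicate 2 the adjusted p of Trx-2 at 18°C was 0.0331, and at 25°C it was 0.0309 with rescaled TPM and 0.0447 with the oenocyte score. Gclm had an amplitude of 0.14 at 18°C (adjusted p = 0.571) and of 0.23 with a maximum at ZT 15.1 at 25°C (adjusted p = 0.141). Cat had amplitudes of 0.14 at 18°C (adjusted p = 0.237) and 0.11 at 25°C (adjusted p = 0.346), and the call at 25°C was made with rescaled TPM (adjusted p = 0.0452). Sod1, Sod2, Gclc and cnc had amplitudes between 0.01 and 0.12 at 18°C and between 0.05 and 0.14 at 25°C, none with an unadjusted p below 0.05. The median amplitude over all genes was 0.17 at 18°C and 0.10 at 25°C.

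**Figure D4:**
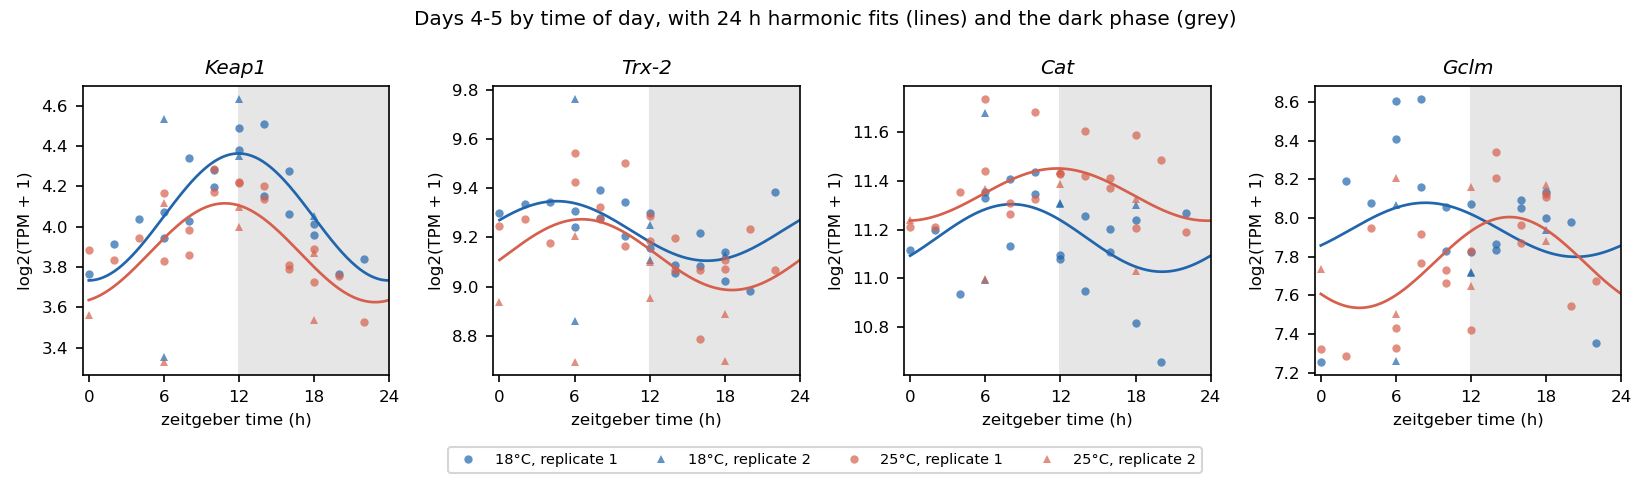
Levels of Keap1, Trx-2, Cat and Gclm (log2 of TPM + 1, vertical axes) by zeitgeber time (h, horizontal axes) on days 4-5, with libraries as points (circles for replicate 1, triangles for replicate 2), fitted 24 h curves as lines and the dark phase in grey. The curves of Keap1 peak at ZT 12 at 18°C and ZT 10.9 at 25°C.

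In the first 2 days Sod1 had higher and Sod2 lower values at 18°C at each time sampled at both temperatures. At the 3 such times after ZT00 of day 1, Sod1 had 3117 TPM at 18°C against 2526 TPM at 25°C on day 1 at ZT06, 2783 TPM against 2396 TPM at ZT12, and 3588 TPM against 2716 TPM on day 2 at ZT00. Sod2 had 147 TPM at 18°C against 164 TPM at 25°C, 150 TPM against 164 TPM, and 147 TPM against 196 TPM at these times. ZT00 of day 1, the start of the sampling, was not part of the test, and the dismutases already stood in this order there, with Sod1 at 2746 TPM at 18°C against 2510 TPM at 25°C and Sod2 at 155 TPM against 193 TPM. Over all libraries of days 1-2, Sod2 ranged from 118 to 188 TPM at 18°C (median 142), and 17 of these 18 libraries lay below the lowest of the 5 at 25°C, which held 164, 164, 192, 193 and 196 TPM.

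The limma fit over the 6 matched libraries called no gene at all. At an unadjusted p under 0.05 it held 886 genes (12%), and its smallest adjusted p was 0.324. With library weights, which were estimated from the same 6 libraries, it called 1624 of 7358 genes, Keap1 and Gclm among them. Weights from so few libraries are uncertain, and these calls are not read as a result about the members. The difference was 0.31 for Sod1 (limma adjusted p = 0.614) and -0.23 for Sod2 (limma adjusted p = 0.726), with intervals from -0.25 to 0.87 and from -0.80 to 0.34. Among the matched libraries was that of 18°C on day 2 at ZT00, whose correlation with its group (0.906) was the lowest of the series. Without that time the differences of Sod1 and Sod2 were 0.26 and -0.14.

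Keap1 showed the largest early difference of the 8. It had 18.1, 20.4 and 24.6 TPM at 18°C, against 12.1, 13.9 and 12 TPM at 25°C, at day 1 ZT06, day 1 ZT12 and day 2 ZT00. The groups did not overlap at these times, which also held for Sod1 and Sod2. The share of all genes separated in this way was not computed, so the separation is not read as a result about these members. In the same fit 12% of all genes had an unadjusted limma p under 0.05. The difference was 0.68 (SE 0.24, limma unadjusted p = 0.0326, adjusted p = 0.38), and without day 2 ZT00 it was 0.54 (adjusted p = 0.118). Over all libraries of days 1-2, 14 of 18 at 18°C exceeded the highest of the 5 at 25°C (9.95, 12, 12.1, 13.6 and 13.9 TPM). The remaining differences lay between 0.09 (Gclc) and 0.39 (Gclm), with Trx-2, Gclm, cnc and Cat higher at 18°C in 3 of 3 times and Gclc in 2 of 3. At ZT00 of day 1, outside the test, Keap1 had 11.6 TPM at 18°C against 9.95 TPM at 25°C, and Gclc and cnc were also higher at 18°C. Trx-2 (500.0 against 589 TPM), Gclm (146 against 152 TPM) and Cat (1993 against 2020 TPM) were lower at 18°C there. The median over all genes was 0.16 in these libraries and -0.05 with rescaled TPM, under which Cat (-0.05), Gclc (-0.13) and cnc (-0.11) had negative values.

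The change of the temperature difference between the periods was tested as an interaction over 27 libraries at ZT00, ZT06 and ZT12. It called 1.62% of all genes (119 of 7358), 0.394% with a positive and 1.22% with a negative term, and none of the 8. Sod2 came nearest, with a term of 0.46 (SE 0.13, limma unadjusted p = 0.00179, adjusted p = 0.0673), followed by Sod1 with -0.45 (SE 0.15, unadjusted p = 0.00805, adjusted p = 0.123). Sod2 was called without the libraries that stand apart (0.51, adjusted p = 0.0345), with a filter of 20 TPM (adjusted p = 0.0447) and with library weights (0.52, adjusted p = 0.0382), and its adjusted p was 0.165 without the library at 25°C on day 2 at ZT00. The terms of the other 6 ranged from -0.31 for Keap1 to -0.03 for Gclc, and their adjusted p-values were 0.594 or higher.

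Each temperature was then compared with itself, days 4-5 against days 1-2, with the first library of day 1 at 18°C left out. These tests share libraries with those above, and the later flies were also older, so period and age cannot be told apart. At 18°C, 30.0% of all genes were called, 23.9% higher and 6.14% lower on days 4-5, and Sod2, Gclm and Sod1 were among them. The same 3 were called without the libraries that stand apart, with differences of 0.30, 0.29 and -0.19. At 25°C, where the early group held only 5 libraries, 20.7% of all genes were called, 16.1% higher and 4.61% lower on days 4-5, with Sod2, Gclm and cnc among them.

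Sod2 changed in opposite directions at the temperatures. At 18°C it averaged 171 ± 17.4 TPM on days 4-5 and 143 ± 15.2 TPM on days 1-2, a difference of 0.27 (limma adjusted p = 0.000219). At 25°C it averaged 149 ± 13.9 TPM on days 4-5 and 182 ± 16.2 TPM on days 1-2, a difference of -0.26 (limma adjusted p = 0.0103), and 22 of 26 later libraries lay below the lowest early library. At 25°C the call held in each of the 5 fits that left out an early library. At 18°C the difference was 0.16 with rescaled TPM (adjusted p = 0.0597). Sod1 at 18°C averaged 2506 ± 290 TPM on days 4-5 and 2855 ± 350 TPM on days 1-2, a difference of -0.18 (limma adjusted p = 0.0217), and at 25°C its difference was 0.11 (limma adjusted p = 0.334).

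Gclm was higher on days 4-5 at both temperatures. At 18°C it averaged 256 ± 60.6 TPM on days 4-5 and 207 ± 45.6 TPM on days 1-2, a difference of 0.27 (limma adjusted p = 0.0417). At 25°C it averaged 227 ± 48.4 TPM on days 4-5, against 152, 189, 157, 229 and 109 TPM in the 5 early libraries, a difference of 0.38 (limma adjusted p = 0.0466). Both calls lay near the threshold. With rescaled TPM the differences were 0.16 (adjusted p = 0.323) at 18°C and 0.29 (adjusted p = 0.203) at 25°C, and at 25°C the call was lost without the early library of day 1 ZT00 (adjusted p = 0.0902), day 1 ZT12 (0.22) or day 2 ZT00 (0.173).

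cnc at 25°C averaged 126 ± 12.9 TPM on days 4-5, against 91.3, 106.7, 105, 112 and 104 TPM in the early libraries. The difference was 0.24 (limma adjusted p = 0.0154), with 23 of 26 later libraries above the highest early library. It was lost with rescaled TPM (0.15, adjusted p = 0.166) and without the library of day 1 ZT00 (adjusted p = 0.0682) or day 1 ZT12 (adjusted p = 0.0757). Gclc at 25°C had a difference of 0.33 (limma adjusted p = 0.0604) and was called without day 1 ZT06 (adjusted p = 0.0349) or day 1 ZT18 (adjusted p = 0.0484). At 18°C Gclc had 0.19 (limma adjusted p = 0.166) and cnc 0.12 (adjusted p = 0.229), and without replicate 2 cnc was called with 0.22 (adjusted p = 0.00187). Cat, Trx-2 and Keap1 had differences of 0.07, 0.09 and -0.10 at 18°C and of 0.19, -0.02 and 0.10 at 25°C, none of which passed the test. Cat at 25°C was called without replicate 2 (0.23, adjusted p = 0.0326), and Keap1 at 18°C was called with rescaled TPM (-0.20, adjusted p = 0.0461).

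Germline and eggshell markers also differed between the periods at 25°C. Their mean scores were 2.26 and 1.55 on days 4-5, against 4.01 and 4.46 on days 1-2. The gut score was 2.23 on days 4-5 against 1.65 on days 1-2, and the median summed levels of the hemocyte markers (702 against 582 TPM) and the oenocyte markers (25241 against 22501 TPM) were also higher on days 4-5. At 18°C the scores were 3.19 and 2.81 on days 4-5 and 3.04 and 2.35 on days 1-2. Of the 10 eggshell markers, none had a median above 5 TPM at 25°C on days 4-5 and 9 did at 25°C on days 1-2. With the scores of germline, eggshell and gut as covariates, Sod2 and cnc were called at 25°C and Gclm was not (0.20, adjusted p = 0.437).

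**Figure D5:**
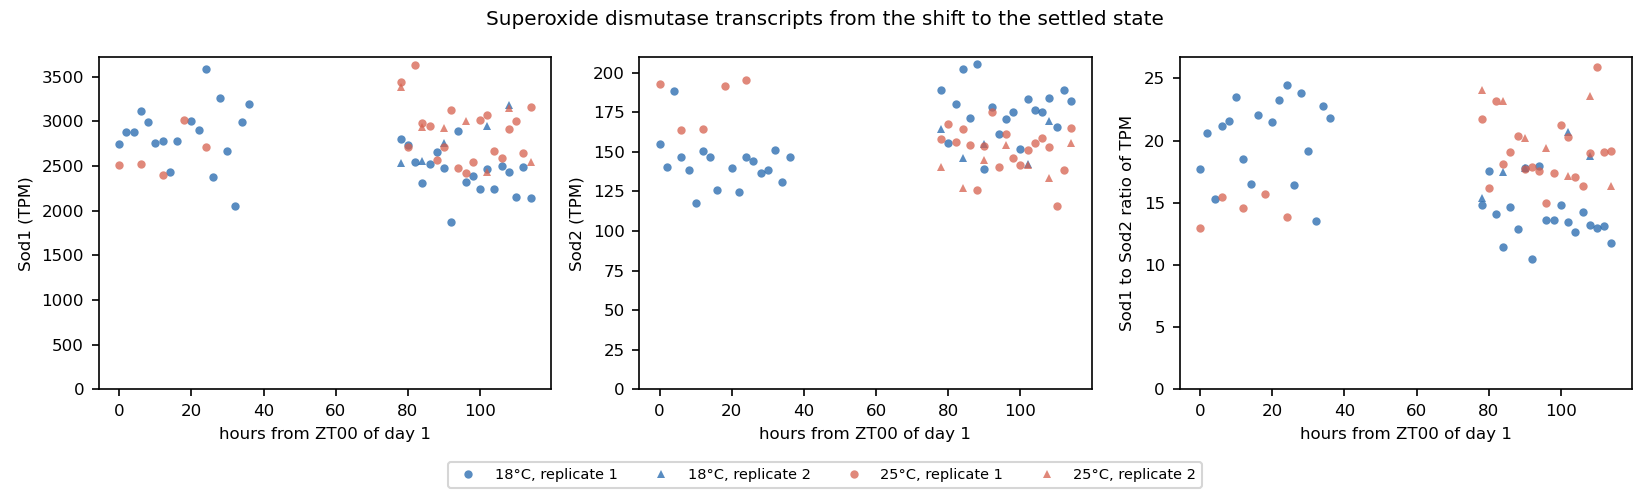
Sod1 TPM, Sod2 TPM and their ratio (vertical axes, from 0) against hours from ZT00 of day 1 (horizontal axes), with circles for replicate 1 and triangles for replicate 2. The ratio averaged 14.8 at 18°C and 19.5 at 25°C on days 4-5, and 20.2 at 18°C and 14.5 at 25°C on days 1-2.

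The ratio of Sod1 to Sod2 summarised the time course. On days 4-5 it was 14.8 ± 2.6 at 18°C and 19.5 ± 2.8 at 25°C, and on days 1-2 it was 20.2 ± 3.2 at 18°C and 14.5 ± 1.1 at 25°C (SD, n = 18 and 5). The groups overlapped in both periods. At ZT00 of day 1 the ratio was already 17.7 at 18°C against 13 at 25°C. The ratio itself was not tested.

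The rhythm of the early libraries at 18°C was fitted as well. It called a single gene, Clk (0.0136% of 7358), and no member. Gclm had the largest amplitude, 0.32 with a maximum at ZT 10.1 (unadjusted p = 0.00742, adjusted p = 0.505 by the harmonic F-test), and Gclc had 0.30 with a maximum at ZT 17.2 (unadjusted p = 0.0337, adjusted p = 0.705). In fly heads, transcripts of these subunits are known to cycle.

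Library by library, some of the 8 varied together within a temperature. All 28 pairs of genes were correlated at each temperature of days 4-5, and permutation p-values were adjusted over 56 relations. Sod1 and Cat had r of 0.808 (rho 0.781) at 18°C and 0.782 (rho 0.749) at 25°C, both with an adjusted p of 0.00028, and r of 0.792 and 0.737 without the 2 libraries farthest in Sod1. The subunits of glutamate-cysteine ligase were negatively correlated at 18°C, and at 25°C their r did not pass the test. Gclc and Gclm had r of -0.561 (rho -0.594, adjusted p = 0.0205) at 18°C and -0.459 (rho -0.491, adjusted p = 0.0676) at 25°C. Within replicate 1 their r was -0.439 and -0.427, and without the 2 libraries farthest in Gclc it was -0.49 and -0.318. Trx-2 and Gclm had r of -0.636 (rho -0.683, adjusted p = 0.00482) at 25°C and -0.251 (rho 0.104, adjusted p = 0.388) at 18°C, where the rank correlation had the other sign. With the muscle score at 25°C, Trx-2 had r of 0.758 and Gclm -0.586, and the part of tissue content in their relation was not tested. cnc and Keap1 had r of 0.156 (rho -0.120, adjusted p = 0.592) at 18°C and 0.555 (rho 0.494, adjusted p = 0.0161) at 25°C. Without the 2 libraries farthest in cnc their r at 25°C was 0.347, and the adjusted permutation p of rho there was 0.0575. The other p-values are for Pearson r.

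The spread between libraries also differed among the genes. The coefficient of variation at 18°C was 10.1% for Sod2, 11.6% for Sod1 and 27.6% for Gclc, and at 25°C it was 9.33% for Sod2, 11.2% for Sod1 and 18.0% for Gclc. The log2 ratio of the variance at 18°C to that at 25°C was 1.42 for cnc, 0.91 for Gclc and -0.55 for Trx-2. Over all genes tested the median of this log2 ratio was 0.82.

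The gene most like each member was found by Pearson correlation over the 50 libraries of days 4-5, which share tissue and total but differ in temperature and time. Sod1 was most like Cyt-b5, a cytochrome that donates electrons to fatty acid enzymes (r of 0.924), and Cat was most like Cpr, the reductase of the cytochrome P450 enzymes (0.864). For Cat the oenocyte marker Cyp4g1 had the same rounded r of 0.864 and CG1309 had 0.863. The oenocyte marker Fad2 ranked 3 for Sod1 (0.895). Sod2 was most like CG3699 (0.780), and Keap1 was most like Sesn, a sestrin (0.771). Trx-2 was most like CG5973 (0.859), Gclm was most like CG11899 (0.719), cnc was most like CG9932 (0.820) and Gclc was most like Smg5, a factor of nonsense-mediated decay (0.715).

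The other genes of the same pathways were taken from 10 lists that hold 80 genes besides the 8, of which 63 were tested. These lists were also chosen with earlier results of these data known, so their shares are given as a description. On days 4-5, 39 of the 63 (61.9%) were called by the limma test, 33 higher and 6 lower at 18°C, and their median difference was 0.21, against 50.7% and 0.09 over all genes. Over all genes 35.3% were called as higher and 15.5% as lower, and each list below is to be read against these shares. The surplus of higher calls over all genes shrank with rescaled TPM (69.6% to 53.8% of the called genes), and the lists were not counted under that scaling. Glutathione S-transferases, which conjugate glutathione to toxic compounds, had 17 of 26 tested members called, 16 of them higher at 18°C. GstD5 was higher by 1.09 on the log2 scale and GstE7 by 0.81. GstD2 had the largest difference, 1.77 (12.5 ± 14 TPM at 18°C and 2.92 ± 5.06 TPM at 25°C), with medians of 5.285 and 0.995 TPM. GstD2 thus passed the filter of 5 TPM only through the group at 18°C, and its call, counted among the 16, carries no weight. The GstD and GstE genes are clusters of similar copies, and the authors' counting could have split reads between them.

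Of the peroxiredoxins, a family of peroxidases, 6 of 7 were called, 5 of them higher at 18°C. Jafrac2 had 32.8 ± 5.5 TPM at 18°C and 21.7 ± 3.1 TPM at 25°C, a difference of 0.57 (limma adjusted p = 4.84e-10). Prx2540-1 (0.70) and Prx2540-2 (0.73) were higher as well, and as near-identical copies they are not separate observations. All 4 genes of NADPH supply, which powers both the thioredoxin and the glutathione system, were called as higher at 18°C, against 35.3% of all genes. Zw, the first enzyme of the pentose phosphate pathway, had 261 ± 61.1 TPM at 18°C and 188 ± 48.0 TPM at 25°C, a difference of 0.44 (limma adjusted p = 1.94e-09), followed by Men with 0.21 and Pgd with 0.16.

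In the list of glutathione synthesis and turnover 2 of 6 were called, Ggt-1, which breaks glutathione down outside the cell (0.68), and PHGPx, a peroxidase that reduces lipid peroxides (0.28, limma adjusted p = 9.98e-06). Among 5 genes of cysteine supply only Eip55E was called (0.35), and among 4 of the thioredoxin system only Trxr-1. Of the 4 catalase and heme peroxidase genes all were called, Cat and Pxn (-0.49) as lower, Irc (0.20) and Pxt (1.24) as higher. Pxt had 26 ± 36.8 TPM at 18°C and 5.85 ± 6.73 TPM at 25°C, a spread above the mean, with medians of 6.57 and 3.69 TPM. Like GstD2, Pxt passed the filter of 5 TPM only through the group at 18°C, and its call carries no weight. The mean germline score (3.19 against 2.26) and eggshell score (2.81 against 1.55) were also higher at 18°C, without a test of the scores. None of the 3 germline markers tested as genes was called, nor was the 1 eggshell marker tested. Whether carried-over ovary tissue accounts for Pxt was not tested. Superoxide dismutation had 2 of 4 tested genes called, namely Sod1 and Sod2. Of 5 genes of oxidised protein repair and redox sensing 3 were called, SelR (-0.23) and dj-1beta (-0.12) lower and Sesn (0.20) higher.

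The partners of cnc and Keap1 had 3 of 6 called. maf-S, the small Maf protein with which CncC binds DNA, had 118 ± 13.9 TPM at 18°C and 179 ± 20.2 TPM at 25°C. It was lower at 18°C in 24 of 24 pairs, and 23 of 24 libraries at 18°C lay below the lowest at 25°C. The difference was -0.59 (SE 0.04, limma adjusted p = 7.72e-17), larger in size than that of any of the 8. Pgam5 (0.31) and Keap1 (0.19) were higher, while cnc did not pass the test.

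By time of day, 12 of the 63 listed genes were called at 25°C (19%, against 5.04% of all genes) and 2 at 18°C (3.17%, against 1.78%). Among the 12 were Gss1 and Gss2, near-identical copies with the same fitted values, which count as a single observation. At 18°C the called genes were Zw, with an amplitude of 0.46 at ZT 8.2 (adjusted p = 0.00101 by the harmonic F-test), and Pgd, with 0.30 at ZT 9.5 (adjusted p = 0.045). Both were also called at 25°C, Zw with 0.47 at ZT 8.0 (adjusted p = 1.17e-05) and Pgd with 0.38 at ZT 9.2 (adjusted p = 0.000493). maf-S was called at 25°C only, with 0.16 at ZT 0.4 (adjusted p = 0.0378) against 0.17 at ZT 22.6 at 18°C (adjusted p = 0.0698), and its rhythm was not shown to differ between temperatures (limma adjusted p = 0.663). Only ref(2)P among the listed genes passed the test of differential rhythm (adjusted p = 0.0341), against 0.435% of all genes. PHGPx had an amplitude of 0.13 at ZT 8.9 at 25°C (adjusted p = 0.0499).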

How the data were processed

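Bulk RNA-seq was carried out on abdominal fat bodies of Iso31 flies in 73 libraries. From poly(A) RNA the authors made non-stranded libraries (NEBNext Ultra II), and after trimming with Atropos they mapped reads by STAR 2.7.10a and estimated abundance by RSEM on the Ensembl BDGP6.32 genes. The authors deposited TPM, normalised to a fixed library total, for 23932 genes. Every column matched the title of a single library, and 0 columns were left unmapped. TPM keeps no depth, so the depth per library is unknown, counting errors and floors could not be computed, and precision rests on the number of libraries. The methods describe removal of duplicate reads, and whether this table holds that version is not stated. Because TPM are shares, a very abundant transcript that increases pulls the values of other genes down.

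Values were transformed as log2(TPM + 1), so fold changes understate the change of low genes. Genes with a median above 5 TPM at either temperature on days 4-5 were tested (7358). Mean differences, period differences and interaction terms were fitted with limma 3.58.1 in R 4.3.3, with 24 h harmonic terms or ZT as covariates. Rhythms were tested by harmonic regression with an F-test. Benjamini-Hochberg adjustment ran over all tested genes, with a threshold of 0.05. Differences are 18°C minus 25°C, or days 4-5 minus days 1-2. Errors are SD unless stated otherwise. Correlations were tested 2-sided with 100000 permutations of libraries.

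Groups, days and ZT came from the labels alone. The 8 genes, the pathway lists and the marker lists were chosen with earlier results of these data known. The members are named whatever they did. From each list the 3 called genes with the largest settled difference could be named, and Trxr-1, maf-S and PHGPx in any case. Genes named by their rhythm (Clk, ref(2)P, and Zw and Pgd for their rhythm), their oenocyte marker status or a library effect were named after their values were seen. Alternatives were another pseudocount (0.1), no filter or a filter of 20 TPM, TPM rescaled by median ratios over genes, library weights, a replicate block, marker scores as covariates and leaving out replicates or libraries. The oenocyte score, the marker scores for rhythms and periods, and the fits without libraries that stand apart (a median correlation with their group under 0.93) were added after seeing the data. The tests were tried on simulated data. Gene positions come from BDGP6.54, which held 7329 of the tested genes.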

Additional observations from a re-analysis of the deposited data

How the results depend on the processing

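Among the results for single members under the alternatives, 585 kept their direction and their side of the threshold, 20 lost a call, 26 gained one and 24 had the other sign, and where no cause is given below, the cause was not tested. The values below are counts of genes called unless they are log2 differences.

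With no filter, which widens the set of genes tested, the rhythm test called 41 genes at 18°C and 227 at 25°C with 0 members, differential rhythm called 12 and temperature by period 76. With a filter of 20 TPM, which removes Keap1, rhythm at 25°C held 0 members, temperature by period held 1, and rhythm at 18°C on days 1-2 called 0 genes. With rescaled TPM rhythm held 1 member at 18°C and 3 at 25°C, temperature by period called 214 genes, the period difference at 25°C held 1 member, and rhythm at 18°C on days 1-2 called 0 genes. Rescaling moved the share of called genes that were higher to 49.3% for the period difference at 18°C (79.6% without it), to 47.6% at 25°C (77.8%) and to 49.1% for temperature by period (24.4%). Library weights gave 139 genes and 1 member for differential rhythm, 1624 genes and 2 members for the temperature difference on days 1-2, 352 genes and 1 member for temperature by period (a fit that stopped short of its tolerance), and 3895 genes for the period difference at 18°C.

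Without the libraries that stand apart, rhythm at 18°C called 61 genes, and temperature by period held 1 member. With the marker scores of germline, eggshell and gut, rhythm called 36 genes at 18°C and 241 at 25°C, and the period difference at 25°C called 653. With the oenocyte score rhythm held 1 member at 18°C, and at 25°C it called 613 genes with 2 members.

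Leaving out a replicate, and with it libraries, gave 330 to 3765 genes and 0 to 5 members for the settled difference, 0 to 1105 genes and 0 to 2 members for rhythm at 18°C, 0 to 213 genes and 0 to 1 members for rhythm at 25°C, and 0 to 30 genes for differential rhythm. Leaving out a replicate or an early library gave 738 to 2203 genes and 1 to 4 members for the period difference at 25°C, and leaving out a time gave 0 to 49 genes for the temperature difference on days 1-2 and 17 to 38 for temperature by period.

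Same-numbered libraries of the 2 temperatures did not deviate together (median r of 0.0374 over 24 pairs, from -0.466 to 0.624, with 9 above 0.1), so the numbers were not taken to pair them. With the replicate block the settled difference called 3813 genes and the same 4 members, and with a block for each matched pair 3523 genes and the same 4. The replicate block gave 268 genes and 1 member for rhythm at 18°C (Keap1, adjusted p = 0.0491), 590 genes for rhythm at 25°C, and 208 genes and 1 member for temperature by period (Sod2, 0.45, adjusted p = 0.0233).

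Signs changed only for differences that were not called in the main fit or that lost their call. In the settled difference cnc was at 0.0347 with library weights, 0.0034 with the germline, eggshell and gut scores, 0.0644 with the oenocyte score, 0.0123 without the libraries that stand apart and -0.284 to 0.0502 without a replicate, Cat was at 0.0367 with the oenocyte score and at -0.249 to 0.0398 without a replicate, Gclm at -0.146 to 0.259 and Gclc at -0.017 to 0.496. On days 1-2 Cat was at -0.0472, Gclc at -0.134 and cnc at -0.108 with rescaled TPM, and Gclc at -0.197 with library weights and -0.0594 to 0.32 without a time. In temperature by period Trx-2 was at 0.0362 and Gclc at 0.101 with rescaled TPM, and Gclc at -0.215 to 0.193 without an early library. In the period differences Cat was at -0.035 and Trx-2 at -0.0129 at 18°C with rescaled TPM, and Trx-2 at 25°C was at 0.0106 with library weights and at -0.0703 to 0.0705 without a replicate or an early library.

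The depth of the libraries is unknown, and TPM sums to the same total in each. The days 1-2 comparison rests on 3 libraries at each temperature, and all calls at 25°C between periods rest on 5 early libraries.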
